A study of Mus musculus with 6 samples.

Results

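Kit, its ligand and 8 other growth factors that endothelium can supply to blood cells were followed in cultured aortic endothelial cells (EC) with and without added Meis1. The 10 members, Kit, Kitl, Flt3l, Thpo, Csf1, Csf2, Csf3, Il6, Lif and Il11, were taken by gene symbol from a count table of 54429 genes, and each had a count in at least 1 library. The cells were primary aortic EC from adult C57BL/6 mice of WT genotype. They received a lentiviral vector that carried either Meis1 with the marker YFP (Meis1-OE) or YFP alone (YFP-CTRL), and each condition had 3 libraries of ribodepleted RNA from independently transduced cultures. In each culture, 100000 cells were plated, the virus was removed after 48 h, YFP+CD31+VEC+ cells were sorted at 72 h and then grown to confluency, and RNA came from 300000 of these cells. Both conditions therefore carried a vector, the sort and the expansion. The sources used here do not say whether the cultures came from different animals, so the tests measure the spread between cultures.

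Kit is the receptor tyrosine kinase that marks blood stem and progenitor cells and mast cells, and Kitl, or stem cell factor, is its ligand. Endothelium is a major source of Kitl in blood-forming tissue, where the membrane-held form of the protein acts on neighbouring cells. The other members act on the same progenitors or on their offspring. Flt3l supports lymphoid and dendritic progenitors, Thpo stem cells and megakaryocytes, Csf1 the monocyte and macrophage lineage, Csf2 and Csf3 granulocytes, and Il6, Il11 and Lif signal through the shared receptor chain gp130, encoded by Il6st.

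The libraries held from 34176592 to 47956569 counts. Meis1 itself, the overexpressed gene, had from 135325 to 157828 counts in the Meis1-OE libraries and from 39 to 85 in the YFP-CTRL libraries, so every library fitted its label. All 10 endothelial markers checked were detected, with summed levels of 3418 to 4246 CPM in Meis1-OE and 4520 to 6234 CPM in YFP-CTRL. Cdh5 was the largest part of these sums. Single markers moved both ways, 5 with a positive and 5 with a negative log2 fold change. Vwf was 24.3 to 87.1 CPM in Meis1-OE and 6.23 to 8.13 CPM in YFP-CTRL, whereas Tek was 38.7 to 51.4 CPM and 66.1 to 90.2 CPM. CPM are a gene's counts scaled to library size, here after TMM, edgeR's correction for differences in library composition. Libraries of a condition carry the letters A, B and C of the deposited table, and values per library are always in this order. The YFP-CTRL libraries were unequal in proliferation, taken as the mean log2(CPM + 1) of 15 cell cycle genes. This score was 6.32 to 6.38 in the Meis1-OE libraries, 4.15 in YFP-CTRL A, 5.11 in YFP-CTRL B and 6.29 in YFP-CTRL C. YFP-CTRL C thus lay near the Meis1-OE libraries, and values without each of the YFP-CTRL libraries are given where they alter a result. Because the score varied almost only among the controls, fits with it as a covariate rest largely on YFP-CTRL C.

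Both Kitl and Kit are known in alternative forms that a count per gene adds together, and the coding stretches in which the forms differ are printed here because the values below cannot separate them. They were read from the GENCODE M1 transcripts, 5′ to 3′ on the coding strand. In Kitl, exon 6 of 10 (84 bases, in capitals) encodes the site at which the membrane-bound protein is cut to release the soluble form, and the transcript Kitl-002 joins its neighbours directly.
Kitl-001: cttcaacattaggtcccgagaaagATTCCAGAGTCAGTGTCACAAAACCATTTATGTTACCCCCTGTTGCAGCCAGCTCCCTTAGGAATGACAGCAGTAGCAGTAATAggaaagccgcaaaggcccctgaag
Kitl-002: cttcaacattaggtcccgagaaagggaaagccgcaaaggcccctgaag
In Kit, the transcripts differ by 12 bases (in capitals) at the end of exon 9, in the part that encodes the extracellular domain next to the membrane.
Kit-002: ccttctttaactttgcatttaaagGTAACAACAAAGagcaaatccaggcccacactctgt
Kit-001: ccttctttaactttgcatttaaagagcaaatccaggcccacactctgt

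Kitl was the most abundant member in both conditions and the only member past the threshold, and it was lower in Meis1-OE. The gene lies on mouse chromosome 10 (chr10:100015615-100100416, GRCm38.p6). Meis1-OE A, B and C measured 157, 182 and 190 CPM, and YFP-CTRL A, B and C measured 413, 532 and 250 CPM. The conditions did not overlap, the highest Meis1-OE library lying under YFP-CTRL C, the lowest control, as was so for 15.9% of all tested genes in this direction. The means were 176 ± 17.4 CPM in Meis1-OE and 398 ± 142 CPM in YFP-CTRL (SD, n = 3 each), a 2.26-fold lower level (log2 fold change -1.18, SE 0.26; edgeR quasi-likelihood test with Benjamini-Hochberg adjustment over 16065 genes, adjusted p = 0.0427), where 2.73% of all genes were called lower. DESeq2 gave an adjusted p of 0.000805. In RNA of a whole culture, fewer cells that express a gene and less of its RNA per cell cannot be told apart.

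The direction for Kitl held in all 14 alternative settings and the call in 6 of them. Without Meis1-OE A, B or C the adjusted p was 0.154, 0.177 or 0.159 (log2 fold changes -1.10, -1.20 and -1.23), without YFP-CTRL A it was 0.0793 (-1.17) and without YFP-CTRL B 0.121 (-0.90). Without YFP-CTRL C, the control with the high proliferation score, the difference was larger (log2 fold change -1.44, edgeR adjusted p = 0.0013). Fitting the proliferation score as a covariate made it smaller (-0.72, edgeR adjusted p = 0.213).

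Kit lies on chromosome 5 (chr5:75574987-75656722, GRCm38.p6). Its level was 3.24, 2.84 and 4.19 CPM in Meis1-OE and 4.24, 6.08 and 10.8 CPM in YFP-CTRL, from 129 to 194 and from 144 to 491 counts. The conditions did not overlap, as was so for 15.9% of all tested genes in this direction. Meis1-OE C and YFP-CTRL A were almost level, however, and the control spread was wide. The means were 3.42 ± 0.693 and 7.04 ± 3.39 CPM (SD, n = 3 each). The difference, -1.04 on the log2 scale (SE 0.35), did not pass edgeR's test (adjusted p = 0.121). It passed in 3 of the 14 alternatives, namely DESeq2 (adjusted p = 0.0357), the proliferation score as a covariate (log2 fold change -1.68, adjusted p = 0.0138) and leaving out YFP-CTRL A (-1.31, adjusted p = 0.0495). The covariate fit rested largely on YFP-CTRL C. Without YFP-CTRL C, the highest library, the log2 fold change was -0.61 (edgeR adjusted p = 0.115).

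Kit and Kitl were therefore ordered differently among the controls. YFP-CTRL C was the highest of them for Kit and the lowest for Kitl. Mast cells also carry Kit, and the summed level of 8 mast cell markers was 1.09 to 1.56 CPM in Meis1-OE and 0.913 to 1.63 CPM in YFP-CTRL. Fcer1a was at 0 counts in every library and Mcpt4, Tpsb2 and Cma1 did not exceed 3 counts in any. The other 4 markers were detected. Tpsab1 had 18, 41 and 31 counts in Meis1-OE and 16, 46 and 58 in YFP-CTRL. For Tpsab1, YFP-CTRL C was the highest control and A the lowest as for Kit. Hdc had 26, 16 and 30 counts against 12, 12 and 16, Cpa3 1, 4 and 5 against 1, 0 and 0, and Ms4a2 3, 4 and 3 against 2, 3 and 0. Hdc, Cpa3 and Ms4a2 thus had higher means in Meis1-OE, unlike Kit. The part of such cells in the Kit values was not tested.

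**Figure D1:**
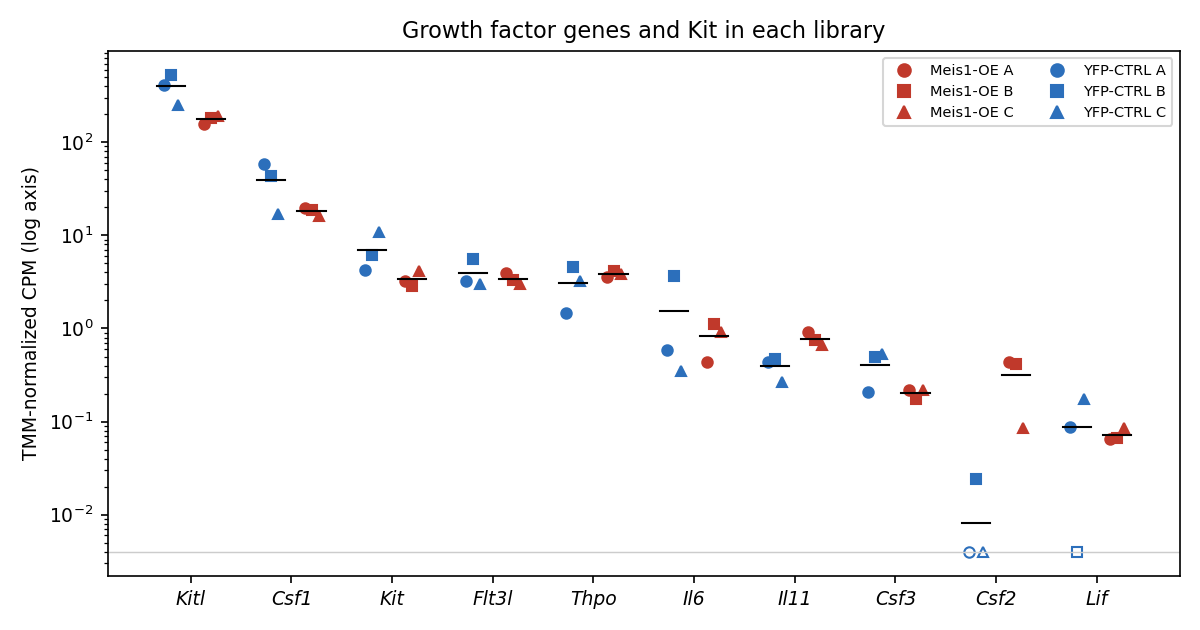
TMM-normalized CPM of the 10 members on a log axis, 1 point per library (red, Meis1-OE; blue, YFP-CTRL; shapes, libraries A, B and C), with black bars at the group means and open symbols on the grey line for libraries at 0. Kitl stood above all other members at 157 to 532 CPM. Kitl and Kit were lower in every Meis1-OE library than in any YFP-CTRL library, as were 15.9% of all tested genes.

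Csf1, the growth factor of macrophages, was the member with the second highest level. It measured 19.9, 18.8 and 16.1 CPM in Meis1-OE and 58.7, 43.1 and 17.0 CPM in YFP-CTRL. YFP-CTRL A and B were well above all Meis1-OE libraries, whereas YFP-CTRL C lay among them, so the conditions overlapped. The log2 fold change was -1.11 (SE 0.40, edgeR adjusted p = 0.134). DESeq2 called Csf1 lower (log2 fold change -1.13, adjusted p = 0.0326), as did edgeR without YFP-CTRL C (-1.48, adjusted p = 0.00159). With the proliferation score as a covariate the value was 0.03 (edgeR adjusted p = 0.952), no longer negative. The part of proliferation in the Csf1 and Kitl differences was not tested beyond these fits, and the covariate fits rest largely on YFP-CTRL C.

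**Figure D2:**
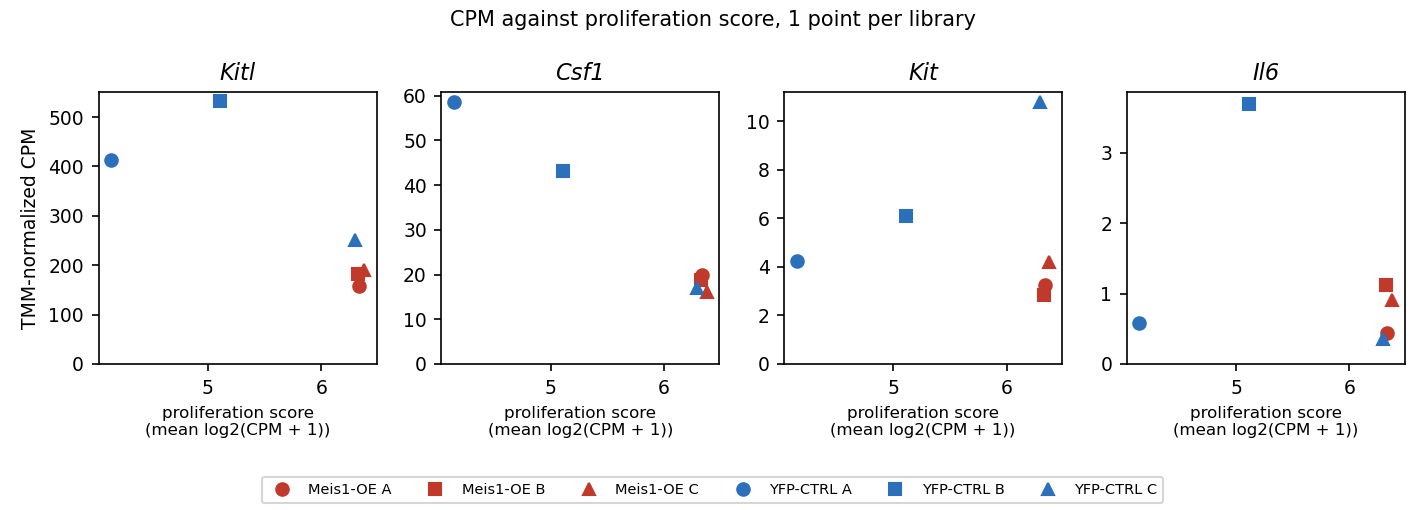
TMM-normalized CPM of Kitl, Csf1, Kit and Il6 (y axes, linear from 0) against the proliferation score (x axes, mean log2(CPM + 1) of 15 cell cycle genes), 1 point per library. The 3 Meis1-OE libraries and YFP-CTRL C shared scores of 6.29 to 6.38, at which Csf1 was 16.1 to 19.9 CPM in all 4, Kitl was 250 CPM in YFP-CTRL C against 157 to 190, and Kit was 10.8 CPM against 2.84 to 4.19.

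Of the granulocyte factors, Csf2 (GM-CSF) was detected almost solely in Meis1-OE, at very low level. It had 20, 19 and 4 counts in Meis1-OE and 0, 1 and 0 in YFP-CTRL. Meis1-OE C was well below A and B but above every control. The filter on low counts kept Csf2 out of the main test. The 43 counts against 1 gave a ratio of 37.6 (95% exact interval 6.40 to 1520, for counting error only). Without the filter edgeR gave an adjusted p of 0.0345, and DESeq2 an adjusted p of 0.0100. Csf3 (G-CSF) had 10, 8 and 10 counts in Meis1-OE and 7, 20 and 24 in YFP-CTRL. In CPM, Csf3 was 0.219, 0.176 and 0.216 in Meis1-OE and 0.206, 0.49 and 0.528 in YFP-CTRL, so YFP-CTRL A lay among the Meis1-OE libraries and the conditions overlapped (log2 fold change -1.01, SE 0.43, edgeR adjusted p = 0.188).

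The 3 factors that signal through gp130 behaved unlike each other, and none passed the threshold. Il11 was 0.919, 0.749 and 0.669 CPM in Meis1-OE and 0.442, 0.466 and 0.264 CPM in YFP-CTRL, from 31 to 42 and from 12 to 19 counts. Every Meis1-OE library lay above every control, as was so for 17.2% of all tested genes. The log2 fold change was 1.0 (SE 0.33, edgeR adjusted p = 0.114), it stayed positive in all 14 alternatives and it passed in 0 of them, with adjusted p from 0.088 to 0.324.

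Il6 had 20, 51 and 42 counts in Meis1-OE and 20, 151 and 16 in YFP-CTRL. A single library, YFP-CTRL B, set its mean. The log2 fold change was -0.91 (SE 0.85, edgeR adjusted p = 0.535) with that library and 0.82 (adjusted p = 0.437) without it. Lif was at or near the limit of detection, with 3, 3 and 4 counts in Meis1-OE and 3, 0 and 8 in YFP-CTRL, and was not tested.

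Flt3l and Thpo, which act on early progenitors, showed no difference larger than the spread between libraries. Flt3l was 3.98, 3.33 and 2.98 CPM in Meis1-OE and 3.21, 5.54 and 3.02 CPM in YFP-CTRL (log2 fold change -0.19, 95% interval -0.85 to 0.46, edgeR adjusted p = 0.703). Without YFP-CTRL B, the highest library, its value was 0.15. Thpo was 3.59, 4.12 and 3.84 CPM in Meis1-OE and 1.47, 4.58 and 3.26 CPM in YFP-CTRL (log2 fold change 0.31, 95% interval -0.57 to 1.18, edgeR adjusted p = 0.645), and without YFP-CTRL A, the lowest, its value was -0.04. Thpo overlaps Chrd in the annotation, and the strand setting of the counts is not given in the sources used here, so their reads may not be told apart. Csf1, Csf2, Csf3, Il6 and Il11 likewise overlap an annotated gene (Gm40121, Gm12223, Gm38985, A230098N10Rik and Tmem190).

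Over the 10 members, 8 passed the filter. edgeR called 1 of them lower, against 2.73% of all 16065 genes tested, and 0 higher, against 4.14% (6.87% in either direction). At an unadjusted p under 0.05 there were 5 members, 4 lower (Kit, Kitl, Csf1, Csf3) and 1 higher (Il11), where 26.2% of all tested genes had such a p. DESeq2 called 3 lower (Kit, Kitl, Csf1) and 1 higher (Csf2), against 6.14% and 6.21% of all genes. Of the 8 tested, 2 were lower without overlap between conditions and 1 was higher, where 15.9% and 17.2% of all genes did so (33.1% in either direction), and 5 overlapped. The median log2 fold change of the 8 was -0.96, beside 0.01 for all genes.

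The scaling mattered for the split of all calls. It was 665 higher and 438 lower (60.3% higher) with TMM, 1048 higher and 179 lower (85.4% higher) with library totals, and 115 higher and 16 lower without Meis1-OE B. Library totals shifted the median log2 fold change of all genes to 0.15, and the Kitl value under them was -1.03 (edgeR adjusted p = 0.0505).

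**Figure D3:**
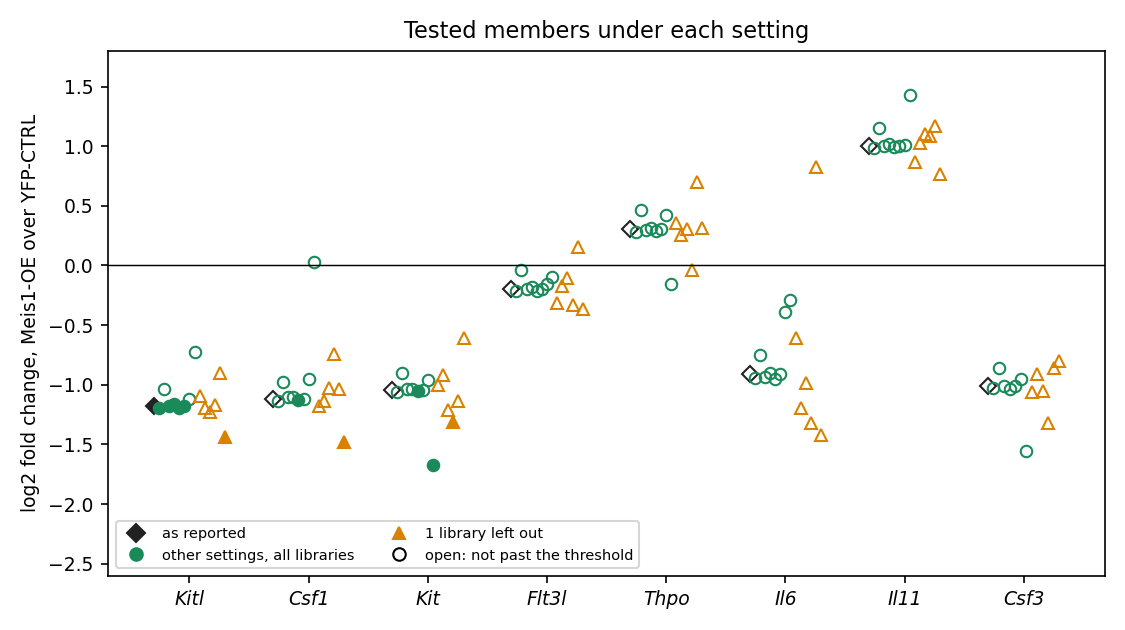
Log2 fold change (Meis1-OE over YFP-CTRL) of the 8 tested members as reported (diamonds), under other settings with all libraries (circles) and with 1 library left out (triangles), filled where the adjusted p was under 0.05. Kitl, Kit and Csf3 stayed below 0 and Il11 above 0 in every setting shown, whereas Csf1, Flt3l, Thpo and Il6 crossed 0 in at least 1.

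Levels can be compared between members only per length, and for this CPM were divided by the length of all exons of a gene in kilobases (GENCODE M1). On this scale the means in YFP-CTRL were 68.2 for Kitl, 7.53 for Csf1, 1.69 for Thpo, 1.42 for Il6, 1.21 for Kit, 1.06 for Flt3l, 0.296 for Il11, 0.289 for Csf3, 0.020 for Lif and 0.010 for Csf2. Kitl and Csf1 were each separated from the member below them. Thpo, Il6, Kit and Flt3l overlapped with their neighbours in this order, as did Il11 with Csf3 and Lif with Csf2.

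In Meis1-OE the order of the mean CPM per kilobase was Kitl (30.2), Csf1 (3.47), Thpo (2.10), Flt3l (0.924), Il6 (0.756), Il11 (0.591), Kit (0.587), Csf2 (0.393), Csf3 (0.144) and Lif (0.017). The first 3 were each separated from the next. From Flt3l down to Csf3 every member overlapped with its neighbour, and Lif lay below Csf3. Kitl was the first, Csf1 the second and Thpo the third member in both conditions.

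The receptors for these factors were examined next, since Kit was the sole receptor among the members. Of 11 receptor genes, 8 were tested, and 3 were higher and 1 lower in Meis1-OE (edgeR adjusted p under 0.05). Of all tested genes, 4.14% were called higher and 2.73% lower. The median log2 fold change of the 8 receptors was 0.50. Csf2rb, the common beta chain that signals for Csf2, had 1503, 2316 and 2182 counts in Meis1-OE and 13, 26 and 50 in YFP-CTRL (log2 fold change 5.91, SE 0.38, edgeR adjusted p = 0.00122). Its near-identical neighbour Csf2rb2, which can share reads with it and is therefore uncertain, had 80, 88 and 80 counts against 0, 1 and 1, a ratio of 108 (95% exact interval 29.7 to 901). The alpha chain Csf2ra, which gives the receptor its affinity for Csf2, was 3.72 to 4.6 CPM in Meis1-OE and 4.03 to 5.0 CPM in YFP-CTRL (log2 fold change -0.11, 95% interval -0.53 to 0.31), and 0.03 with library totals.

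Il6ra, the ligand-binding chain for Il6, was 16.8, 17.0 and 18.9 CPM in Meis1-OE and 9.27, 9.24 and 5.72 CPM in YFP-CTRL (log2 fold change 1.12, SE 0.21, edgeR adjusted p = 0.0252). Il11ra1, the chain for Il11, moved the other way, at 1.09, 1.01 and 1.55 CPM against 3.18, 4.85 and 4.84 CPM (log2 fold change -1.81, SE 0.28, edgeR adjusted p = 0.0138). It has near-copies in the mouse genome, so its counts are uncertain. Il11 and Il11ra1 did not overlap between conditions, in opposite directions. Of all tested genes, 17.2% were higher and 15.9% lower without overlap. The calls for Il6ra and Il11ra1 were lost without Meis1-OE A (adjusted p = 0.0829 and 0.0642), B (0.120 and 0.0902) or C (0.126 and 0.0514) and without YFP-CTRL B (0.0733 and 0.0665), with log2 fold changes from 0.91 to 1.24 and from -2.02 to -1.69 over the libraries left out.

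The shared chain Il6st was 131 to 146 CPM in Meis1-OE and 134 to 167 CPM in YFP-CTRL (log2 fold change -0.14, edgeR adjusted p = 0.504), near 0 with library totals. Lifr, the partner chain for Lif, was 2.45 to 4.01 CPM in Meis1-OE and 3.26 to 8.83 CPM in YFP-CTRL (-0.77, edgeR adjusted p = 0.245), 0.12 with the proliferation score as a covariate and -1.07 (adjusted p = 0.0333) without YFP-CTRL C. Csf1r, the receptor for Csf1, had 15, 26 and 18 counts in Meis1-OE and 1, 4 and 12 in YFP-CTRL (1.63, SE 0.61, edgeR adjusted p = 0.148) and passed without YFP-CTRL C (2.63, adjusted p = 0.021). The macrophage markers C1qa, C1qb, Tyrobp, Adgre1 and Aif1 were at 0 counts in every library, and apart from Cd68 the 9 macrophage markers summed to at most 0.903 CPM. Lyz2, a marker that was detected, had 6, 40 and 37 counts in Meis1-OE and 8, 8 and 7 in YFP-CTRL (log2 fold change 1.63, edgeR adjusted p = 0.181). Meis1-OE B and C were above the controls for Lyz2 as for Csf1r. Meis1-OE A was below every control for Lyz2 (0.131 CPM) and above every control for Csf1r (0.328 CPM). Cd68 gave a log2 fold change of -0.23, and Ptprc and Fcer1g had at most 4 counts in any library, with more counts in YFP-CTRL. The part of macrophages in the Csf1r values was not tested. The receptors of Flt3l and Csf3 were barely present and not tested, with at most 7 counts of Flt3 and 5 of Csf3r in any library.

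**Figure D4:**
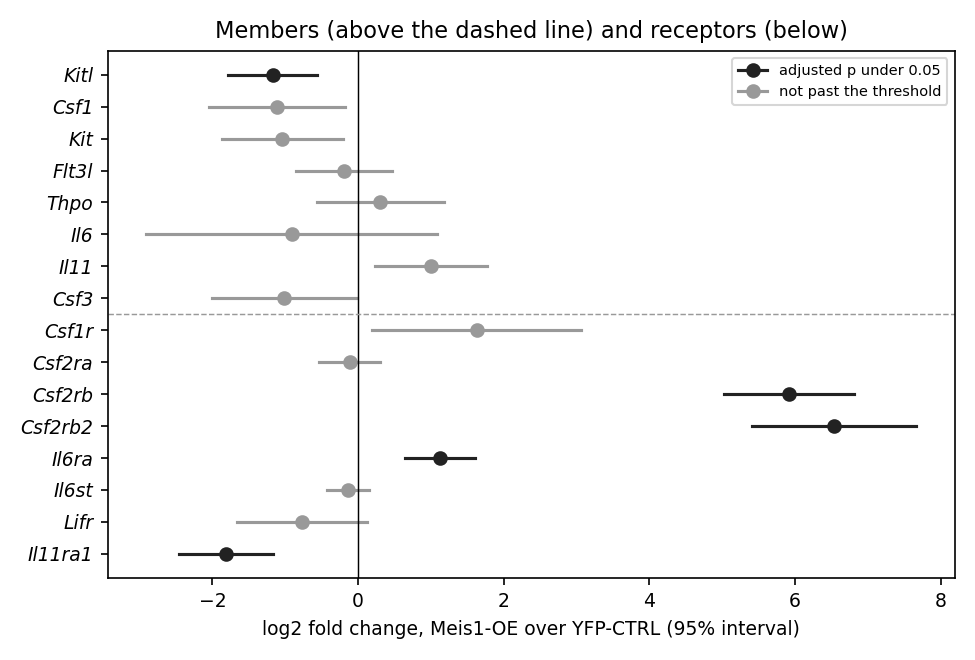
Log2 fold change (Meis1-OE over YFP-CTRL) with 95% interval for the 8 tested members and, below the dashed line, the 8 tested receptors, in black where the edgeR adjusted p was under 0.05 and in grey otherwise. Kitl and Il11ra1 were called lower, and Il6ra, Csf2rb and Csf2rb2 higher.

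Downstream of Kit, 18 signalling genes were all tested, and 1 was higher and 1 lower (edgeR), with a median log2 fold change of -0.01. Of all tested genes, edgeR called 4.14% higher and 2.73% lower. Pik3r1, a regulatory subunit of PI3 kinase, rose (0.61, adjusted p = 0.0496), and Cblb, a ubiquitin ligase that turns off receptor kinases, fell (-0.75, adjusted p = 0.0490). Both calls sat at the threshold. Neither held without Meis1-OE A, B or C or without YFP-CTRL A or B, where edgeR adjusted p ran from 0.0607 to 0.239 for Pik3r1 and from 0.100 to 0.212 for Cblb. The kinase gene Akt1 and the phosphatase gene Inpp5d, named for their mean CPM over the 6 libraries, gave 0.06 (adjusted p = 0.830) and 0.65 (adjusted p = 0.140).

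JAK-STAT genes transmit the signals of most of these cytokines. Of 15 such genes, 3 were higher and 1 lower (edgeR), against 4.14% and 2.73% of all tested genes. Their median log2 fold change was 0.36. Jak3, a kinase of the common gamma chain receptors, was 22.4, 19.9 and 23.3 CPM in Meis1-OE and 6.68, 7.55 and 13.3 CPM in YFP-CTRL (1.25, adjusted p = 0.0382). The kinase gene Pim1, a target of STAT factors, also rose (0.69, adjusted p = 0.0459). Jak2, the kinase that serves the Csf2 receptor, was 22.3, 25.5 and 25.7 CPM against 38.9, 46.5 and 32.4 CPM (-0.68, adjusted p = 0.0483). Jak1 and Stat3, which serve gp130, gave 0.07 (adjusted p = 0.750) and -0.20 (adjusted p = 0.334). The calls for Jak3, Pim1 and Jak2 were lost without Meis1-OE A, B or C and without YFP-CTRL B (adjusted p from 0.124 to 0.205), and without YFP-CTRL C the list held 8 higher and 2 lower. Without YFP-CTRL A, Jak3 had an adjusted p of 0.0568 and Jak2 of 0.0749.

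Most other cytokine genes were too low to test. Of 18, 6 were tested, and 1 was higher and 1 lower (edgeR), against 4.14% and 2.73% of all tested genes. The median log2 fold change of the 6 was 0.00. Il33, a nuclear cytokine released by damaged cells, was 20.7, 24.3 and 21.3 CPM in Meis1-OE and 4.50, 5.56 and 3.28 CPM in YFP-CTRL (2.31, SE 0.21, adjusted p = 0.00307). Cxcl12, the chemokine that retains blood stem cells in the marrow, was 253, 141 and 139 CPM against 510, 491 and 548 CPM (-1.54, SE 0.24, adjusted p = 0.0148). Cxcl12 and Kitl, another niche factor, were both lower in every Meis1-OE library, as were 15.9% of all tested genes. YFP-CTRL C was the highest control for Cxcl12 and the lowest for Kitl. The Il33 call held without each library, whereas the Cxcl12 call was lost without Meis1-OE B (adjusted p = 0.0845), Meis1-OE C (0.0743) or YFP-CTRL B (0.0756).

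Among 19 genes of cytokine transcription and mRNA decay, 0 were higher and 2 lower (edgeR), against 4.14% and 2.73% of all tested genes. At an unadjusted edgeR p under 0.05 there were 2 higher and 5 lower, where 26.2% of all tested genes had such a p. DESeq2 called 1 higher and 4 lower, against 6.21% and 6.14% of all genes. The median log2 fold change of the 19 was -0.04. The AP-1 member Fosl1 was 177, 162 and 164 CPM in Meis1-OE and 462, 592 and 239 CPM in YFP-CTRL (-1.36, adjusted p = 0.0423), and Cebpd, a factor induced in inflammation, was 11.5, 13.4 and 17.4 CPM against 46.9, 35.4 and 22.8 CPM (-1.31, adjusted p = 0.0393). For both genes YFP-CTRL C was the lowest control, as for Kitl. Both lost their call when any library other than YFP-CTRL C was left out (edgeR adjusted p from 0.0598 to 0.187), and without YFP-CTRL C the list held 7 lower. Of 6 genes of Kitl and cytokine receptor shedding, 5 were tested and edgeR and DESeq2 called 0, with a median of -0.05. At an unadjusted edgeR p under 0.05, 1 was higher and 1 lower, beside the same 26.2% of all tested genes. The protease gene Adam10 gave 0.42 (adjusted p = 0.0863) and the inhibitor gene Timp3 -0.05 (adjusted p = 0.868).

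Of 6 transcription factor genes known to act on Kit, 1 was higher and 0 lower (edgeR), against 4.14% and 2.73% of all tested genes. At an unadjusted edgeR p under 0.05 there were 2 in each direction, where 26.2% of all tested genes had such a p. DESeq2 called 1 in each direction, against 6.21% higher and 6.14% lower of all genes. The median log2 fold change of the 6 was -0.02. Lmo2, an adaptor of the Tal1 complex, was 20.9, 28.2 and 35.6 CPM in Meis1-OE and 6.83, 6.72 and 10.3 CPM in YFP-CTRL (1.83, SE 0.25, adjusted p = 0.0107), with an adjusted p of 0.0625, 0.0543 and 0.0570 without Meis1-OE B, Meis1-OE C and YFP-CTRL B. Gata2 was 55.8 to 57.1 CPM against 68.6 to 86.9 CPM (-0.46, adjusted p = 0.0647). Gata2 and Kit were both lower in every Meis1-OE library, as were 15.9% of all tested genes. Both missed edgeR's threshold and passed DESeq2's (adjusted p = 0.0366 and 0.0357). The highest control was YFP-CTRL B for Gata2 and C for Kit. Of this list, Lmo2 and Mitf were higher in every Meis1-OE library, as were 17.2% of all tested genes, and Gata2 and Ldb1 lower, as were 15.9%. Mitf (log2 fold change 0.57, edgeR adjusted p = 0.0906) and Ldb1 (-0.27, edgeR adjusted p = 0.181) did not pass the threshold.

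The promoters of Csf1, Il6 and Csf2 are shown because these members differ in which short motifs lie close to the start. RefSeq (GRCm38.p6) gave 12 windows of 250 bases before a start for 9 members, Csf3 having none in the table. The Meis motif was searched as TGACAG. The AP-1 motif was searched with the letters TGANTCA, where N is any base. The GATA motif was taken as AGATAA. The NF-kB motif was 3 G, any 2 bases, 3 T and 2 C in a row. These were sought on both strands and may overlap each other, whereas the TATA box was sought as TATAAA on the sense strand alone. Matches are in capitals.
Csf1 (chr3:107760470-107760719, minus strand): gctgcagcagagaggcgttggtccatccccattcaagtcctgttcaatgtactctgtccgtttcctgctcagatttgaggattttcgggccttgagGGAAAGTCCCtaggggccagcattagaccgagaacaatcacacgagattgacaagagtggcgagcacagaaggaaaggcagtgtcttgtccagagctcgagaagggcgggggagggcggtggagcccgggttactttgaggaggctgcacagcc
Il6 (chr5:30012864-30013113, plus strand): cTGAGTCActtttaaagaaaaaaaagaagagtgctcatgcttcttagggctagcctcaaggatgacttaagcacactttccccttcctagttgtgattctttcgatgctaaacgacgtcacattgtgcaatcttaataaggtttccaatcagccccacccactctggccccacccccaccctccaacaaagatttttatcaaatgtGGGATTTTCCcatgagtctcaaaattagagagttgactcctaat
Csf2 (chr11:54249900-54250149, minus strand): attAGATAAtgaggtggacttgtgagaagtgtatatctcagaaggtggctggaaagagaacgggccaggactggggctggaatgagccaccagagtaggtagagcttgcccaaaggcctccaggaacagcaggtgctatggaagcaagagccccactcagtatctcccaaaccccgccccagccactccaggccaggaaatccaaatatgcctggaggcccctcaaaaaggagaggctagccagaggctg

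The NF-kB letters stood 154 bases before the start in Csf1 and 44 bases before it in Il6, and 1.41% of all 32851 mouse windows held them. The AP-1 letters were in the windows of Il6 (249 bases before the start), Il11 (98) and Lif (228), and in 6.75% of all windows. Csf2 alone held the GATA letters (247 bases before the start), which 9.99% of all windows held, and Kitl alone TATAAA (25 bases), in 7.59% of all windows. The Meis letters were in 0 of the 9 members' windows and in 15.9% of all windows.

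The genes most like Kit and Kitl over the 6 libraries were sought among 8755 and 8754 tested genes with a mean of at least 10 CPM, by the root mean square difference of centred log2(CPM + 1). This is a description over 6 libraries that also differed in depth and in proliferation score. Closest to Kit were Thsd1 (0.151), Emilin2 (0.161) and Zfp521 (0.172). Thsd1 was 54.4, 48.1 and 57.2 CPM in Meis1-OE and 60.1, 92.9 and 115 CPM in YFP-CTRL, with YFP-CTRL C highest as for Kit. Closest to Kitl were Kdr (0.0765), Enc1 (0.0889) and P3h2 (0.112). Kdr, the VEGF receptor of endothelium, was 261, 329 and 367 CPM against 754, 1040 and 457 CPM, with YFP-CTRL B highest and C lowest of the controls as for Kitl.

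Cells other than EC were looked for with further marker lists. Among 6 fibroblast markers, Lum was at 0 counts and Dcn at no more than 3 in every library. The summed level was 11.9 to 12.0 CPM in Meis1-OE and 16.1 to 49.5 CPM in YFP-CTRL, nearly all of it Pdgfra, since the others summed to at most 0.572 CPM. The 4 smooth muscle markers summed to 1.23 to 3.57 CPM in Meis1-OE and 0.559 to 20.9 CPM in YFP-CTRL, where Acta2 alone reached 19.9 CPM in YFP-CTRL C. The library with this Acta2 level was also the highest for Kit and the lowest control for Kitl, and the part of such cells in these values was not tested.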

How the data were processed

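Ribodepleted RNA-seq of 3 Meis1-OE and 3 YFP-CTRL cultures was analysed. The authors deposited estimated counts (expected counts) per gene symbol, not normalized, on genome build mm10 per the submitters' processing notes. The aligner, counting tool, annotation and strand setting are not given in the sources used here. The labels number the replicates and the table letters its columns, so libraries were assigned to a condition only.

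Counts were rounded to whole numbers and tested in R 4.3.3 with edgeR 4.0.16 (TMM, filterByExpr, quasi-likelihood, limma 3.58.1), with a Benjamini-Hochberg threshold of 0.05 over the 16065 genes kept of 27948 with a count. Standard errors were derived from the test statistic, and the biological coefficient of variation was 0.233. DESeq2, the study's tool, was run as an alternative in version 1.42.0, as were its size factors in edgeR, scaling by library totals, a fit of all genes with a count, a minimum of 10 counts in each library, edgeR's robust option, the column letter as a replicate block, the proliferation score as a covariate, and each library left out. With 3 libraries a condition, an exact permutation test cannot go below 0.1. A gene at or under 3 counts was taken as at the detection limit. Intervals of ratios of counts and detection limits cover counting error only, and intervals of log2 fold changes come from the edgeR fit. Scripts were tested on simulated data. Figures used matplotlib 3.10.9 in Python 3.11.15.

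The members and lists were chosen with earlier results of these data known. Named were all members, receptors with a count, of each other list the genes past the threshold and at most 2 others with the highest mean CPM, marker genes, Meis1, and the 3 genes most like Kit and Kitl. A few list genes that this rule would name are not reported here.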

Additional observations from a re-analysis of the deposited data

How the results depend on the processing

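The small counts at the threshold moved with most settings. For the members, higher calls were 1 without the filter and with DESeq2 and 0 to 1 with a library left out, and lower calls were 0 with library totals, 3 with DESeq2 and 0 to 2 with a library left out. Receptors ran from 2 to 4 higher and 0 to 2 lower with a library left out. For Kit signalling, higher calls were 0 with DESeq2 size factors in edgeR, without the filter and with the proliferation covariate (0 to 3 with a library left out), and lower calls were 0 with these size factors, library totals, at least 10 counts and the covariate (0 to 2). JAK-STAT higher calls were 6 with library totals, 6 with DESeq2 and 0 with the covariate (0 to 8), and lower calls were 0 with library totals, without the filter, with at least 10 counts and with the covariate, and 2 with DESeq2 (0 to 2). Transcription and decay genes had 2, 1 and 1 higher with library totals, DESeq2 and the covariate (0 to 2) and 0, 4 and 0 lower (0 to 7). Shedding genes had 1 higher with library totals (0 to 0 with a library left out) and 1 lower with the covariate (0 to 1). Genes acting on Kit had 2 higher with library totals (0 to 2) and 1 lower with DESeq2 and with the covariate (0 to 2). Other cytokines ran from 1 to 1 higher and 0 to 1 lower. Over all genes, calls ran from 115 to 2717 higher and from 16 to 2498 lower with a library left out; the other settings gave 1048 higher and 179 lower (library totals), 666 and 388 (no filter), 473 and 368 (at least 10 counts), 1128 and 1115 (DESeq2) and 376 and 305 (covariate).

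Log2 fold changes with a library left out ran from -1.31 to -0.61 for Kit, -1.44 to -0.90 for Kitl, -0.37 to 0.15 for Flt3l, -0.04 to 0.70 for Thpo, -1.48 to -0.74 for Csf1, -1.32 to -0.80 for Csf3, -1.42 to 0.82 for Il6 and 0.77 to 1.17 for Il11. Kit was -1.05 with DESeq2 and -1.68 with the covariate, Kitl -1.03 with library totals and -0.72 with the covariate, and Csf1 -1.13 with DESeq2. The sign changed for Flt3l and Il6 without YFP-CTRL B (0.15 and 0.82), Thpo with the covariate (-0.16) and without YFP-CTRL A (-0.042), Csf1 with the covariate (0.031), Csf2ra (0.031) and Il6st (0.00053) with library totals, and Il6st (0.021) and Lifr (0.12) with the covariate. The cause was not tested. Csf3, Csf1r and Csf2rb2 had no value under the minimum of 10 counts in every library.

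With the column letter as a replicate block, Kitl was -1.12 (edgeR adjusted p = 0.0720), lower member calls were 0, receptors had 2 higher since Il6ra (1.15, adjusted p = 0.0515) was no longer called, Kit signalling had 0 higher and 0 lower, JAK-STAT 1 and 0, transcription and decay genes 0 lower, and all genes 544 higher and 189 lower. Libraries with the same letter had correlations of their deviations from the group means of 0.267 (A), 0.120 (B) and 0.0697 (C), and 2 of 3 letters correlated best with their own. The labels do not say that libraries with the same letter belong together, so the main test did not pair them. Whether the letters mark pairs was not tested, and with pairing the only member call was lost.

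With 3 libraries a condition and unequal proliferation among the controls, edgeR's main test did not tell the Kit, Csf1, Csf3 and Il11 differences from the spread between libraries. DESeq2 called Kit and Csf1 lower. The Kitl log2 fold change (-1.18) was close to those of Csf1 (-1.11) and Kit (-1.04). Its call held in 6 of 14 alternatives. Csf2, at 4 to 20 counts in Meis1-OE, was not in the main test and was called by DESeq2 and by edgeR without the filter. With the filter but without YFP-CTRL C, edgeR called 1 member higher, which was not among the 8 of the main test. Lif, Flt3 and Csf3r were limited by depth.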
